A study of Mus musculus with 8 samples.

Results

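The 10 histone H3 methyltransferase genes Kmt2a, Kmt2b, Kmt2c, Kmt2d, Setd1a, Setd1b, Setd2, Nsd1, Ash1l and Ezh2 were followed in nuclei of cultured mouse islets profiled by single nucleus RNA-seq. They were taken by name from the 17362 genes of the expression table, and all 10 were present. Islets came from wild type (WT) mice or from Med14 S983A mice (C57BL/6J), a whole-body knock-in that replaces 1 serine of the Mediator scaffold subunit Med14 by alanine. In each genotype islets were left untreated (CON), given forskolin (FSK), a direct activator of adenylyl cyclase, or given the GLP-1 receptor agonist Exendin-4 (Ex-4) at 10 nM for 16 h. About 100 islets made up a sample, and DAPI-stained nuclei were sorted, then fixed and barcoded. FSK, too, was given for 16 h. The dose of FSK in these islets and the age and sex of the mice were not given in the sources used here. Because the mutation is present in every cell of the animal, values in beta, alpha and delta nuclei of the knock-in do not isolate an effect within 1 cell type.

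These enzymes place methyl groups on lysines of the histone H3 tail. Kmt2a, Kmt2b, Kmt2c, Kmt2d, Setd1a and Setd1b are the catalytic subunits of the COMPASS and MLL complexes, which methylate H3K4 at promoters and enhancers of active genes and share the core partners Wdr5, Rbbp5, Ash2l and Dpy30. Setd2, Nsd1 and Ash1l methylate H3K36, Setd2 behind elongating RNA polymerase II. Ezh2 is a catalytic subunit of Polycomb repressive complex 2 (PRC2), which methylates H3K27 and silences genes. In islets, menin (Men1) works with Kmt2a to sustain inhibitors of the cell cycle, and Ezh2 is known for its decline in beta cells with age.

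The table held 1 pooled value for each of 6 conditions in each of 9 cell types, and the 18 columns of beta, alpha and delta nuclei are described here. There were no replicates: the 8 sublibraries each contained nuclei of all 6 conditions, so no test, standard error or p-value is given, and a condition cannot be told apart from its islet preparation and its barcode wells. Levels are counts per 10000 (CP10K) and intervals are 95% intervals of the counts, which cover counting error only. Column totals were 1915006 to 3094377 counts in beta, 269394 to 810127 in alpha and 362410 to 631433 in delta nuclei. A difference was counted as past the threshold at 1.5-fold (0.58 in log2). The percent of all genes past it is given for each treatment, for the untreated genotypes and for alpha over beta nuclei. All 10 genes passed the filter on low values (a mean count of 10 over the 6 conditions) in beta nuclei and 9 passed in alpha and delta nuclei, where Ezh2 did not.

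The cell type labels followed their markers. Of the 10 beta, 8 alpha and 6 delta markers, 9, 8 and 5 were highest in the labelled type. No beta marker was at 0 in a beta column, while 1 alpha marker was at 0 in at least 1 alpha column and 2 delta markers in at least 1 delta column. The summed alpha markers stood at 1.18 to 4.45 CP10K in beta columns and at 40 to 126 in alpha columns. Among alpha columns this sum was low, at 40 to 41.9, for WT Ex-4 and for S983A without FSK. The remaining alpha columns gave 94.7 (WT CON), 103 (S983A FSK) and 126 (WT FSK). The summed beta markers stood at 12.9 to 34.7 in alpha columns and 52.4 to 73.9 in beta columns. Their highest alpha value, 34.7, belonged to WT CON, against 12.9 to 20.4 elsewhere. Whether these marker differences bear on the levels reported here was not tested. Columns also differed in the share of 1 group of 14 genes, of which 6 are mitochondrial and the others were listed as linked to ribosomal RNA. That list includes Cdk8, Cmss1 and Lars2, which the paper reported as higher in mutant cells or after Ex-4. The group took 9.15% to 17.5% of the counts in the WT Ex-4, S983A CON and S983A Ex-4 columns of the 3 cell types. In the WT CON and both FSK columns it took 2.16% to 5.27%. These shares were high in the same columns as many of the levels reported here. Leaving these genes out of the column totals changed the median log2 ratio of the 10 genes from 0.63 to 0.72 for Ex-4 in WT beta nuclei. In such pools, fewer nuclei of a type and less RNA per nucleus cannot be told apart.

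The 10 genes lie on 7 chromosomes and their spans differ widely (GRCm39, GENCODE M39). Nuclear RNA contains introns, so a longer gene offers more sequence to count. Kmt2b spans 20.1 kb (chr7:30268283-30288414, minus strand), Setd1a 23.5 kb (chr7:127375842-127399294, plus), Setd1b 26.4 kb (chr5:123280256-123306692, plus) and Kmt2d 39.5 kb (chr15:98729550-98769085, minus). Ezh2 spans 65.3 kb (chr6:47507073-47572331, minus), Kmt2a 78.0 kb (chr9:44714652-44792621, minus) and Setd2 89.4 kb (chr9:110358262-110447701, plus). The longest are Nsd1 with 108.6 kb (chr13:55357560-55466138, plus), Ash1l with 128.8 kb (chr3:88857929-88986682, plus) and Kmt2c with 227.0 kb (chr5:25476796-25703810, minus). In all, 7 genes share part of their span with a gene on the opposite strand that is also in the table, among them Rab24 (Nsd1), Dap3 (Ash1l), Cul1 (Ezh2) and AI480526 (Setd1b). Whether counting used strand is not stated, so reads in the shared parts are uncertain. Kmt2b, Kmt2d and Setd2 have no such neighbour in the table.

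Promoter sequences (RefSeq, from 250 bases before to 50 bases after the start, table of build GRCm38.p6) were matched for 6 of the 10 genes, each with a single exact match in GRCm39. The promoters of Kmt2a and Kmt2d are printed because these H3K4 genes differed widely between conditions, and that of Setd2 because it differed less. Capitals mark the GC box GGGCGG, the motif bound by Sp1 family factors, on either strand, with overlapping copies joined. The positions are chr9:44792538-44792837 (minus strand) for Kmt2a, chr15:98769037-98769336 (minus) for Kmt2d and chr9:110361415-110361714 (plus) for Setd2, the last 3403 bases inside the annotated GENCODE start of the gene.
Kmt2a: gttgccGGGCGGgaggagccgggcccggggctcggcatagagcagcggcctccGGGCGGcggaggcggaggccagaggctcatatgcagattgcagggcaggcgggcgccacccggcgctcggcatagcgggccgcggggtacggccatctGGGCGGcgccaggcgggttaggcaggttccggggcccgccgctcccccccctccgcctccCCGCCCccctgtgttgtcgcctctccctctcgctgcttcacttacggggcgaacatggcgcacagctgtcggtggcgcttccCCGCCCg
Kmt2d: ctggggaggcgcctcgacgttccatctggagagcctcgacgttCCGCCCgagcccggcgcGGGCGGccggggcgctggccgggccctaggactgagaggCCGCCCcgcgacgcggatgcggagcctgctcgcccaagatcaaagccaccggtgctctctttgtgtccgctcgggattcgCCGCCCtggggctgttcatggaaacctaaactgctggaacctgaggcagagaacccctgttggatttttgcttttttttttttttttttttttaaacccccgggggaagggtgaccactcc
Setd2: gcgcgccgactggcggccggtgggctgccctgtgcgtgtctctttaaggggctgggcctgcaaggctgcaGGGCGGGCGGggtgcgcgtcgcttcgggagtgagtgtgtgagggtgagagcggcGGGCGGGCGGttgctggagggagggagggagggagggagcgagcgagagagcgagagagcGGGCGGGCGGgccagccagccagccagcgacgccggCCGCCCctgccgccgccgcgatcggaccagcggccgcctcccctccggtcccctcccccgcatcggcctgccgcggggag

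The GC box occurred 5 times in the Kmt2a promoter, 12 times in Kmt2c, 4 times in Kmt2d and 7 times in Setd2, and was not found in Setd1a or Ezh2, whereas 35.9% of the 27025 promoters in the RefSeq table held at least 1. All 6 promoters were rich in CG, with 27 (Kmt2d) to 56 (Kmt2c) CG dinucleotides against a median of 7 over all promoters. The cAMP response element TGACGTCA and its core TGACG, read on both strands, were in none of the 6 windows. The core is present in 21.0% of all promoters and the full element in 1.88%. The E-box CACGTG, present in 7.24%, was likewise not in these windows. Setd2, with 38 CG, and Kmt2a, with 36, were alike in this respect.

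Per 100 kb of gene span, the H3K4 enzymes Kmt2d and Kmt2a gave the highest levels in each of the 3 cell types. In beta nuclei the mean over the 6 conditions was 8.92 CP10K per 100 kb for Kmt2d (4.41 to 13.5 over conditions) and 8.15 for Kmt2a (3.68 to 12.4). These ranges overlapped almost entirely, so the order of this pair is not fixed. Kmt2b followed with 6.25 (3.08 to 9.93), Setd1a with 4.0 (1.87 to 6.09), Nsd1 with 3.99 (2.82 to 4.96), Setd1b with 3.42 (2.02 to 4.64) and Ash1l with 2.92 (2.48 to 3.22). Kmt2c stood at 2.19 per 100 kb, Setd2 at 2.04 and Ezh2, the only H3K27 enzyme among them, at 0.228 (0.180 to 0.288). The range of Ezh2 lay below those of all 9 others, while neighbours from Kmt2b to Setd2 overlapped. Kmt2d and Kmt2a also led in alpha nuclei (11.8 and 11.6 per 100 kb), and Ezh2 was last in alpha and delta nuclei (0.207 and 0.179). The order depends on the division by span. As plain CP10K the highest beta means were 6.35 for Kmt2a, 4.97 for Kmt2c, 4.33 for Nsd1, 3.76 for Ash1l and 3.53 for Kmt2d. Exons covered 19.93 of 39.5 kb in Kmt2d and 25.77 of 227.0 kb in Kmt2c.

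Kmt2a, the MLL1 enzyme that partners menin, showed in beta nuclei a grouping of columns that the other H3K4 genes shared in part. In beta nuclei its level was 5.07 CP10K (4.81 to 5.33) in untreated WT islets, against 2.87 (2.68 to 3.06) after FSK and 8.29 (7.97 to 8.62) after Ex-4. In Med14 S983A beta nuclei it was 9.70 (9.27 to 10.2) in CON, 3.03 (2.81 to 3.26) in FSK and 9.18 (8.76 to 9.62) in Ex-4. The untreated mutant column was therefore at least as high as the Ex-4 columns, the WT CON column lay between, and both FSK columns were lowest, with intervals apart from WT CON. The other H3K4 genes also had WT CON between the FSK columns and the rest in beta nuclei. For Kmt2b, Setd1a and Setd1b, however, the intervals of S983A FSK and WT CON overlapped. In alpha nuclei the levels were 6.75 in WT CON, 6.61 in WT FSK, 11.7 in WT Ex-4, 11.4 in S983A CON, 6.43 in S983A FSK and 11.3 in S983A Ex-4. Here WT CON and both FSK columns formed a low group and the other 3 a high group. Delta nuclei gave 5.68, 3.98, 8.87, 11.5, 4.61 and 10.5 CP10K in the same order, with the beta pattern.

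**Figure D1:**
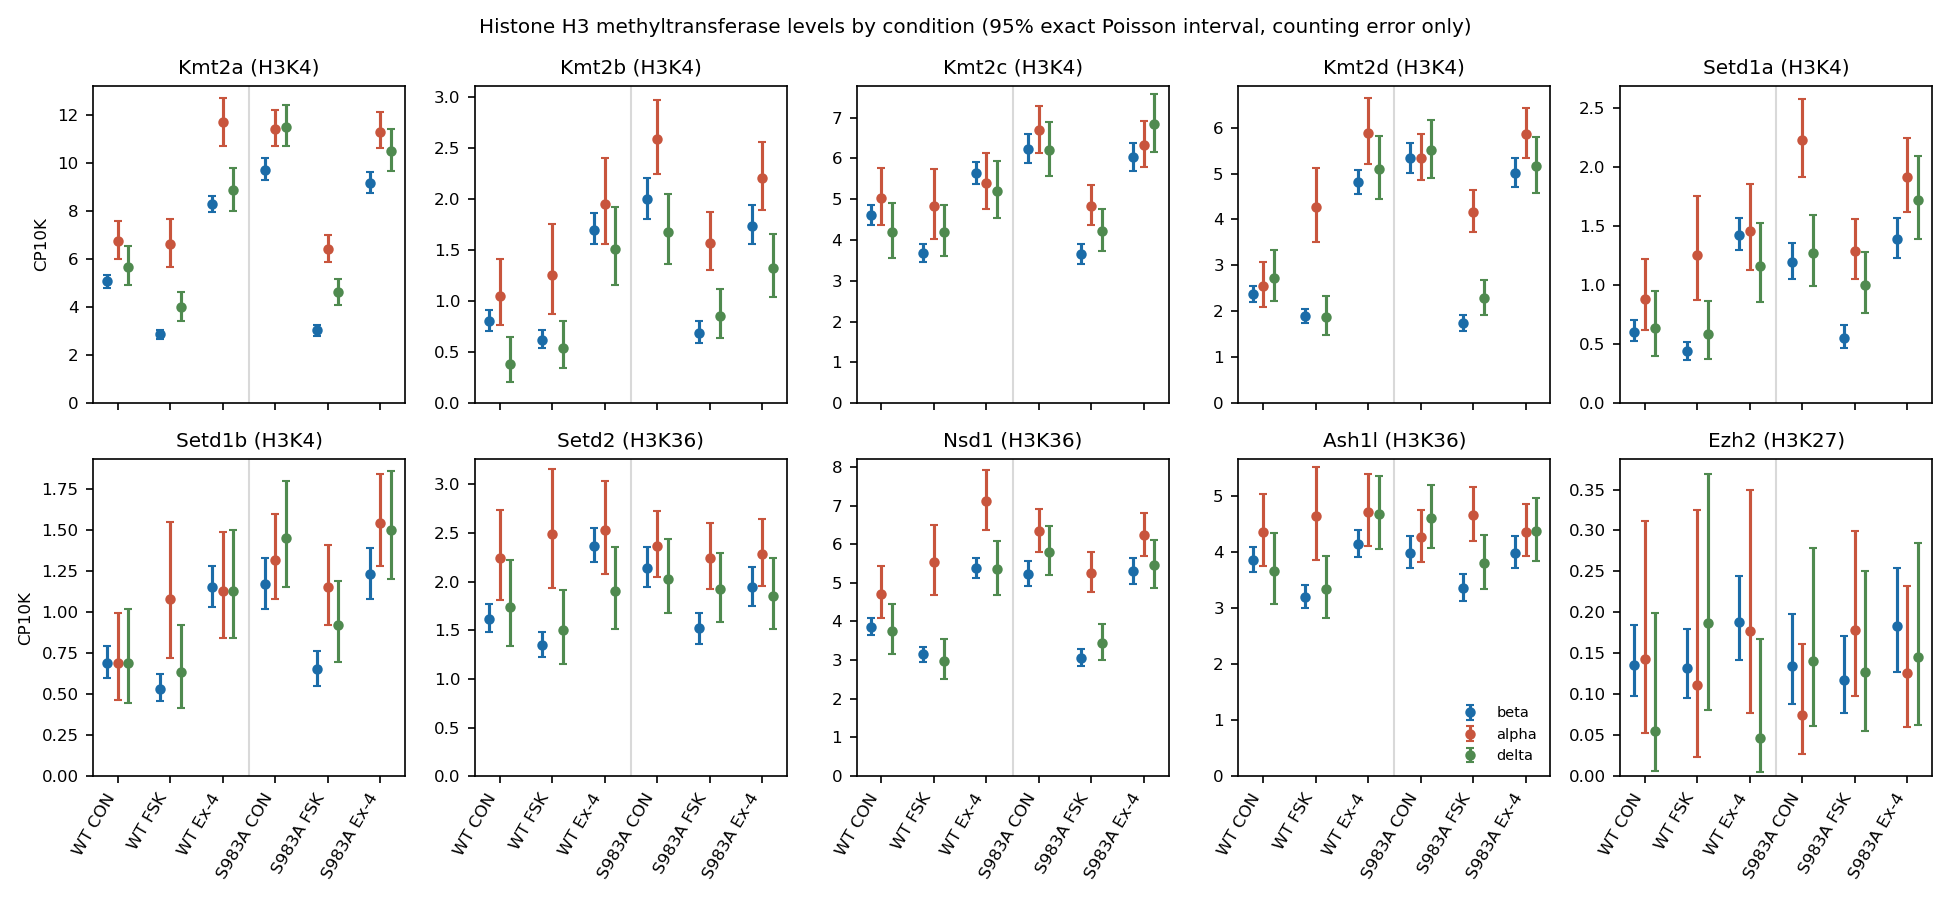
Level of each histone H3 methyltransferase (CP10K, linear axis from 0) in the 6 conditions, WT on the left of each panel and Med14 S983A on the right. Points are pools of beta, alpha or delta nuclei and bars their 95% exact Poisson intervals. Kmt2a, Kmt2b and Kmt2d stand high in WT Ex-4, S983A CON and S983A Ex-4, and Ash1l runs nearly flat (3.20 to 4.15 CP10K in beta nuclei).

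Kmt2d (MLL4), an enhancer H3K4 enzyme, stood in WT beta nuclei at 2.38 CP10K (2.21 to 2.56) without treatment, at 1.89 (1.74 to 2.05) after FSK and at 4.81 (4.56 to 5.07) after Ex-4. The mutant values were 5.33 (5.01 to 5.66) in CON, 1.75 (1.58 to 1.92) in FSK and 5.01 (4.70 to 5.34) in Ex-4. Again 3 columns were high and 3 low, and the highest level was 3.05 times the lowest. In alpha nuclei Kmt2d departed from this grouping, since WT CON alone was low at 2.55 CP10K (2.09 to 3.08) and the FSK columns stood at 4.27 (3.52 to 5.12) in WT and 4.16 (3.72 to 4.64) in the mutant, against 5.34 to 5.89 in the remaining 3. In delta nuclei the FSK columns were the lowest, with 1.87 in WT and 2.28 in the mutant.

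Kmt2b (MLL2), which acts at promoters, ranged from 0.620 CP10K in WT FSK to 2.00 in S983A CON in beta nuclei and was at 0.80 (0.702 to 0.908) in WT CON. Its lowest delta column was WT CON with 0.386 CP10K (0.211 to 0.648), which rests on 14 counts, and its highest was S983A CON with 1.68 (1.36 to 2.05). That 4.34-fold range was the widest of the 9 genes kept in delta nuclei. Setd1a, the catalytic subunit of a COMPASS complex of promoters, ran from 0.440 CP10K in WT FSK to 1.43 in WT Ex-4 in beta nuclei, and its paralog Setd1b from 0.533 in WT FSK to 1.23 in S983A Ex-4. Both had their WT CON level (0.607 and 0.690) nearer to the FSK than to the Ex-4 columns.

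Kmt2c (MLL3), the enhancer enzyme closest to Kmt2d in kind, differed less than its relative. In beta nuclei it was at 4.61 CP10K (4.37 to 4.86) in untreated WT islets, 3.67 in WT FSK, 5.64 in WT Ex-4, 6.23 in S983A CON, 3.66 in S983A FSK and 6.04 in S983A Ex-4. As for Kmt2a, the mutant CON level was highest and the FSK columns, equal within error, were lowest, over a range of 1.70-fold against 3.38-fold for Kmt2a. In alpha nuclei Kmt2c ran from 4.83 to 6.69 CP10K and in delta nuclei from 4.19 to 6.84.

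Among the H3K36 enzymes, Nsd1 followed the H3K4 genes and Ash1l did not. Nsd1, which places H3K36 dimethylation, had WT beta levels of 3.85 CP10K (3.64 to 4.08) in CON, 3.15 in FSK and 5.38 (5.12 to 5.65) in Ex-4, and stood at 5.23, 3.06 and 5.3 in mutant CON, FSK and Ex-4. Setd2, which places H3K36 trimethylation along transcribed genes, ranged from 1.35 CP10K in WT FSK to 2.37 in WT Ex-4. In alpha nuclei its 6 levels lay between 2.24 and 2.53 CP10K, with all intervals overlapping.

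Ash1l, the remaining H3K36 enzyme, had the flattest profile in beta and alpha nuclei. Its WT beta levels were 3.87 CP10K (3.65 to 4.10) for CON, 3.20 (3.0 to 3.41) for FSK and 4.15 (3.92 to 4.39) for Ex-4. The mutant levels were 3.99 (3.72 to 4.29) for CON, 3.36 (3.13 to 3.61) for FSK and 3.99 (3.72 to 4.29) for Ex-4. The FSK columns were lower than their CON columns with intervals apart, and the 4 other columns overlapped. Its alpha levels ran from 4.27 to 4.72 CP10K and could not be told apart by counting error. In delta nuclei they ran from 3.34 to 4.68 CP10K, a 1.4-fold range against 1.36-fold for Setd2, and were 1.27-fold higher (1.02 to 1.60) after Ex-4 in WT and 1.26-fold (1.02 to 1.56) in the untreated mutant.

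Ezh2 was scarce. Beta columns held 41 counts in WT CON, 41 in WT FSK, 56 in WT Ex-4, 26 in S983A CON, 27 in S983A FSK and 35 in S983A Ex-4, or 0.117 to 0.188 CP10K, with overlapping intervals throughout. Alpha columns held 3 to 14 counts and delta columns 2 to 8. At this depth differences of Ezh2 between conditions were not detectable in alpha and delta nuclei. Its ratios there are shown but not counted.

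**Figure D2:**
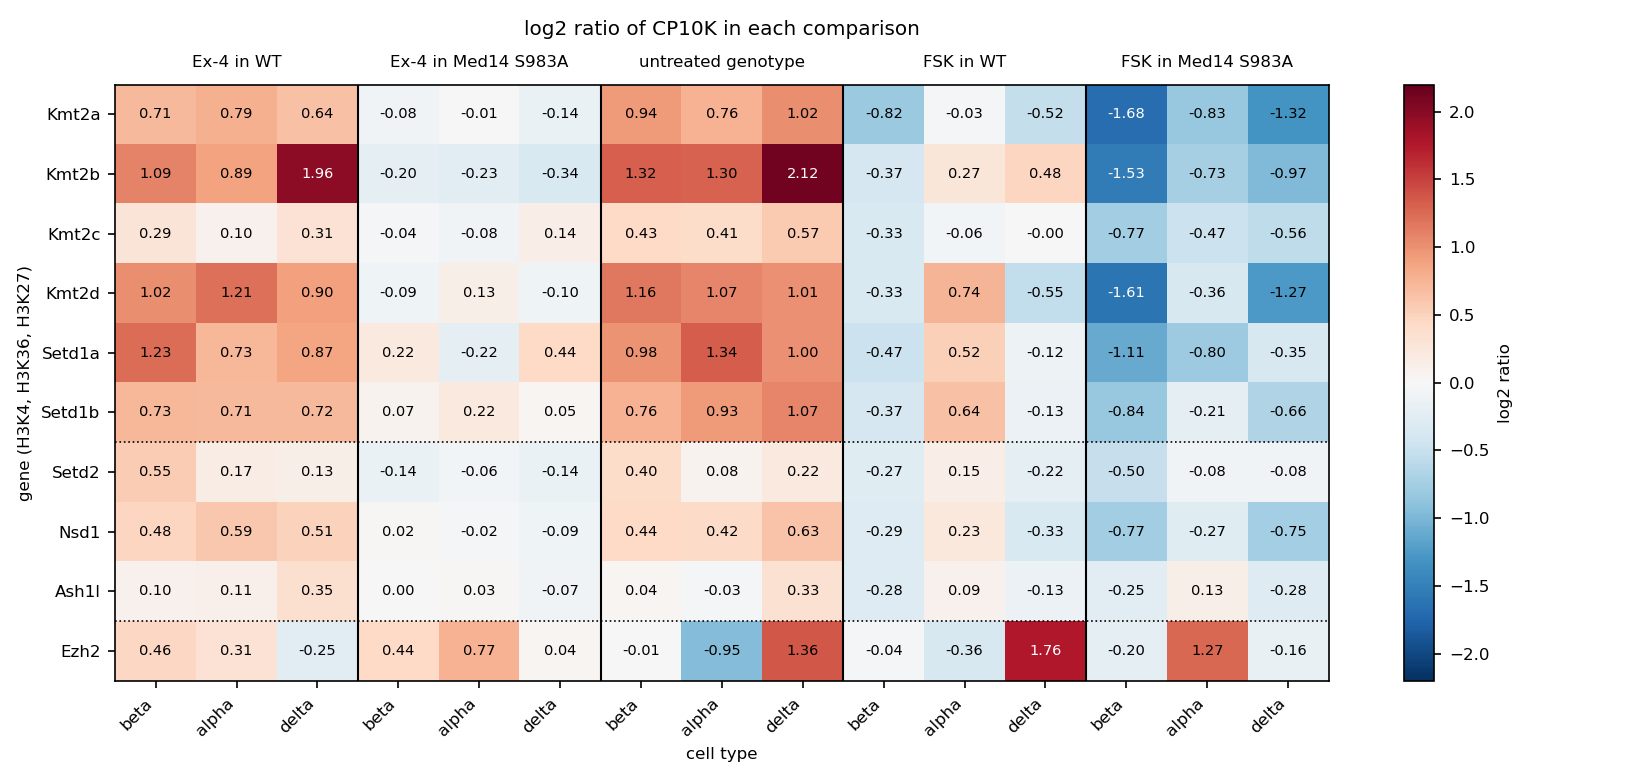
log2 ratio of CP10K for the 10 genes (rows) in 5 comparisons, each in beta, alpha and delta nuclei (columns). Red is higher and blue lower in treated islets, or in untreated Med14 S983A against untreated WT islets for the genotype comparison. Ratios of Ezh2 in alpha and delta nuclei rest on 2 to 14 counts a column.

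The first question was how the methyltransferase genes stood in WT islets after 16 h with Ex-4. In beta nuclei all 10 ratios to CON were above 1, 8 of them with intervals that excluded 1, with a median log2 ratio of 0.63 against 0.19 over the 10987 genes kept, and 5 of 10 were past 1.5-fold, where 29.1% of all genes were higher and 12.2% lower by that measure. The 5 were all H3K4 enzymes. Setd1a was 2.35-fold higher (1.97 to 2.81), Kmt2b 2.13-fold (1.82 to 2.49) and Kmt2d 2.02-fold (1.85 to 2.22). Setd1b (1.66-fold, 1.39 to 1.98) and Kmt2a (1.64-fold, 1.53 to 1.75) completed the group. The sixth H3K4 enzyme, Kmt2c, was 1.22-fold higher (1.14 to 1.31), below the threshold. The H3K36 enzymes gave 1.46 (Setd2), 1.4 (Nsd1) and 1.07 (Ash1l, 0.988 to 1.16), and Ezh2 1.38 (0.906 to 2.12), with both of the last intervals including 1. Relative to the median of all genes, 3 of the 10 (Setd1a, Kmt2b and Kmt2d) were past 1.5-fold, while Setd1b and Kmt2a stood at log2 ratios of 0.55 and 0.53.

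The same 5 H3K4 enzymes were past the threshold in alpha and delta nuclei, though the delta interval of Setd1b included 1 (1.65-fold, 0.997 to 2.78). With the trend of all genes on gene span removed, as given below, fewer of the 5 stayed past it in both cell types. In alpha nuclei 6 of the 9 genes kept were past 1.5-fold higher and none lower, against 24.5% higher and 22.2% lower among all genes. Kmt2d was highest at 2.31-fold (1.84 to 2.92), and Nsd1, at 1.51-fold (1.26 to 1.81), joined the 5 H3K4 enzymes. In delta nuclei 5 of 9 were past the threshold, with 27.4% higher and 17.1% lower over all genes, and Kmt2b gave the largest ratio (3.90-fold, 2.16 to 7.52). The median log2 ratio of the 10 genes was 0.65 in alpha and 0.58 in delta nuclei, where all genes had medians of 0.03 and 0.13.

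In Med14 S983A islets Ex-4 gave little difference from CON. In beta nuclei none of 10 genes was past 1.5-fold, where 5.59% of all genes were higher and 7.65% lower, and the median log2 ratio was -0.02 (-0.04 over all genes). The folds of Kmt2a, Kmt2d and Setd1a were 0.946 (0.886 to 1.01), 0.940 (0.860 to 1.03) and 1.16 (0.971 to 1.39). Intervals of all 10 included 1. In alpha nuclei none of 9 was past the threshold, with 4.20% higher and 9.32% lower over all genes, and the same was true of delta nuclei with 7.25% and 9.18%. The difference between the genotypes in the Ex-4 ratio has no replicate error and was not tested.

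The untreated genotypes were compared next. The WT CON column serves here, for Ex-4 in WT and for FSK in WT, and the S983A CON column serves for both treatments of the mutant, so these comparisons are not independent. In beta nuclei 5 of 10 genes were past 1.5-fold higher in Med14 S983A, where 26.9% of all genes were higher and 22.0% lower. These were Kmt2b (2.5-fold, 2.12 to 2.95), Kmt2d (2.24-fold, 2.04 to 2.47), Setd1a (1.97-fold, 1.62 to 2.41), Kmt2a (1.92-fold, 1.79 to 2.05) and Setd1b (1.69-fold, 1.4 to 2.05). Kmt2a and Setd1a had been singled out by the study from these same nuclei, so their direction is not independent evidence. Ash1l (1.03-fold, 0.940 to 1.13) and Ezh2 (0.992-fold, 0.583 to 1.66) had intervals that included 1. In alpha nuclei 5 of 9 genes were higher, against 23.7% higher and 26.5% lower over all genes, led by Setd1a (2.53-fold, 1.77 to 3.71). In delta nuclei 6 of 9 were higher, against 24.8% and 25.0%, led by Kmt2b (4.34-fold, 2.46 to 8.24). Set side by side under Ex-4, the mutant and WT beta columns gave folds of 0.819 (Setd2) to 1.11 (Kmt2a), and under FSK 0.885 (Ezh2) to 1.26 (Setd1a). In beta nuclei the genotype difference was thus wide without treatment and narrow with it. Delta nuclei were less even. There Setd1a was 1.71-fold higher (1.06 to 2.83) and Kmt2b 1.59-fold (0.959 to 2.71) in the mutant under FSK. Under Ex-4, Setd1a was 1.48-fold higher (1.04 to 2.13), Kmt2c 1.31-fold (1.11 to 1.56) and Kmt2a 1.18-fold (1.04 to 1.35). All delta genes had median log2 ratios of 0.15 under FSK and -0.18 under Ex-4. Of genes shorter than 50 kb, such as Setd1a and Kmt2b, 39.7% were past 1.5-fold higher under FSK and 8.31% under Ex-4. With the trend of all genes on span removed, the log2 ratios of Setd1a and Kmt2b under FSK were 0.26 and 0.08. That of Setd1a under Ex-4 was 0.69.

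**Figure D3:**
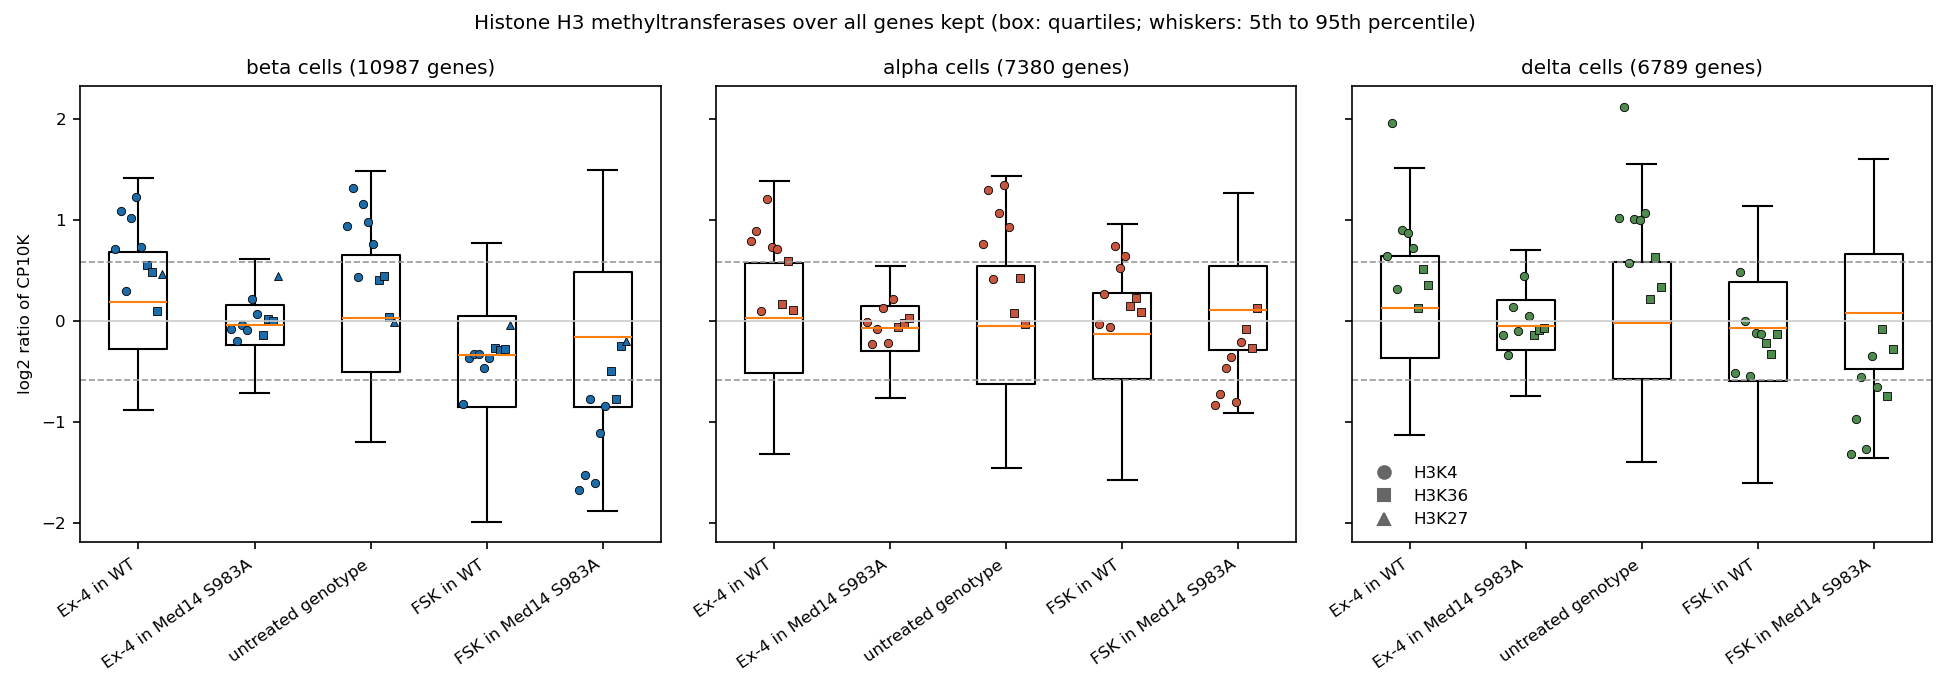
log2 ratios of the methyltransferase genes (points) over all genes kept (boxes, quartiles with the median in orange and whiskers from the 5th to the 95th percentile) in 5 comparisons and 3 cell types. Dashed lines mark 1.5-fold. Ezh2 is shown for beta nuclei only. H3K4 genes (circles) lie above the median of all genes in the untreated genotype comparison and in WT given Ex-4, and below it for FSK in Med14 S983A.

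FSK was compared with CON in each genotype to see whether direct activation of adenylyl cyclase gave the same picture as Ex-4. In WT beta nuclei all 10 ratios were below 1, 9 with intervals that excluded 1, at a median log2 ratio of -0.33, but all genes kept had a median of -0.34, so the members lay where genes in general lay. Kmt2a was the exception, at 0.566-fold (0.520 to 0.615), and was the only 1 of 10 past the threshold, where 36.3% of all genes were lower and 7.15% higher. With the median of all genes set to 0, the Kmt2a ratio was -0.48 and Kmt2a too fell short of the threshold. In WT alpha nuclei 2 of 9 genes were past 1.5-fold higher, against 13.3% higher and 24.1% lower over all genes. These were Kmt2d (1.67-fold, 1.27 to 2.2) and Setd1b (1.56-fold, 0.898 to 2.70), the latter on 29 counts in each column. In WT delta nuclei none of 9 was past the threshold in either direction, where 17.2% of all genes were higher and 25.5% lower.

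In Med14 S983A islets the FSK columns lay well below CON. In beta nuclei 7 of 10 genes were past 1.5-fold lower, including all 6 H3K4 enzymes and Nsd1, where 33.7% of all genes were lower and 21.7% higher. Kmt2a was at 0.312-fold (0.285 to 0.340), Kmt2d at 0.328-fold (0.291 to 0.368), Kmt2b at 0.345-fold (0.285 to 0.416) and Setd1a at 0.463-fold (0.370 to 0.577). The median log2 ratio of the 10 genes was -0.81, and -0.16 over all genes. Setd2 (0.708-fold), Ash1l (0.841-fold) and Ezh2 (0.868-fold) stayed within the threshold. In alpha nuclei 3 of 9 genes were lower (Kmt2a, Setd1a and Kmt2b, at 0.564, 0.575 and 0.604-fold), against 12.1% lower and 23.0% higher over all genes. In delta nuclei 5 of 9 were lower, against 21.3% and 27.7%, with Kmt2a at 0.40-fold (0.347 to 0.460) and Kmt2d at 0.414-fold (0.337 to 0.506). Both FSK beta columns gave nearly equal levels (2.87 and 3.03 CP10K for Kmt2a), and the CON levels were 5.07 and 9.70. The difference between the genotypes was not tested.

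The make-up of the 10 genes' counts does not depend on the column total and was therefore also compared. In beta nuclei Kmt2a accounted for 21.4% (20.5 to 22.4) of the 7122 counts of the 10 genes in untreated WT islets, 16.1% (15.1 to 17.1) after FSK and 23.6% (22.8 to 24.4) after Ex-4. In the mutant its share was 26.1% (25.1 to 27.2), 16.5% (15.4 to 17.6) and 25.5% (24.5 to 26.5). Kmt2a thus made up more of the group in Ex-4 and untreated mutant columns and less after FSK in both genotypes. The share of Ash1l went the other way, with 16.4% (15.5 to 17.3) in untreated WT islets, 17.9% after FSK and 11.8% (11.2 to 12.5) in WT Ex-4. In the mutant it was 10.8% in CON, 18.3% in FSK and 11.1% in Ex-4. A share within a group falls when other members rise more. The Ash1l level itself was 3.87, 3.20 and 4.15 CP10K in WT CON, FSK and Ex-4. It was lower after FSK, while its Ex-4 ratio (1.07-fold, 0.988 to 1.16) had an interval that included 1. Kmt2d held 10.1% in WT CON, 10.6% in WT FSK, 13.7% in WT Ex-4, 14.4% in S983A CON, 9.49% in S983A FSK and 13.9% in S983A Ex-4. For each count of Ash1l there were 1.31 counts of Kmt2a (1.21 to 1.41) in untreated WT islets, 0.896 (0.817 to 0.982) after FSK and 2.00 (1.86 to 2.14) after Ex-4, so the balance between the pair moved whatever the scaling of the columns. In alpha nuclei the WT CON and S983A CON shares of Kmt2a were 23.7% and 26.7%, and in delta nuclei 24.2% and 28.7%.

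**Figure D4:**
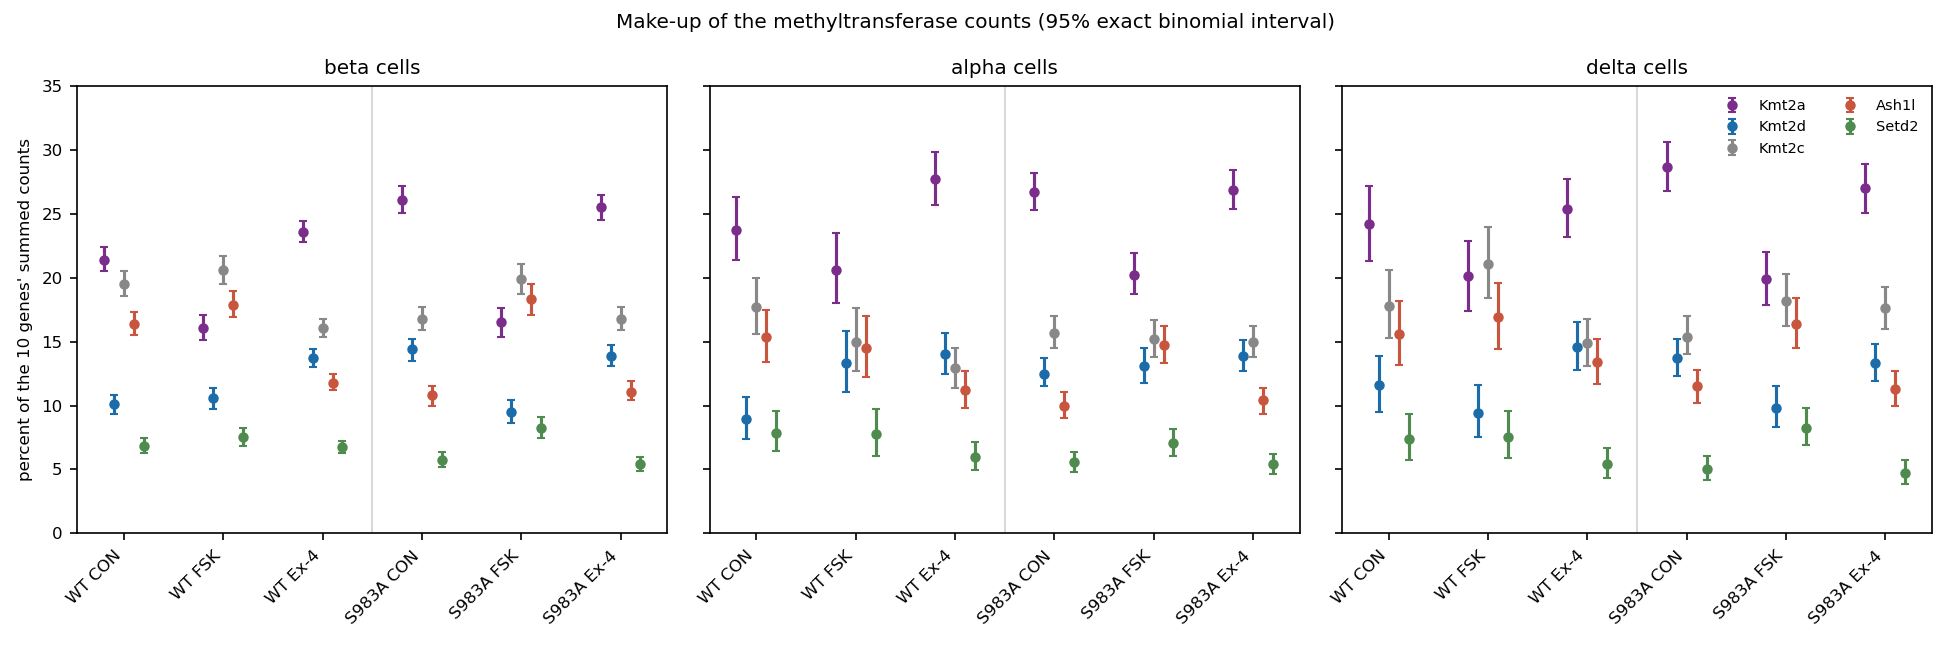
Share of 5 of the genes in the summed counts of all 10 (percent, linear axis from 0) by condition and cell type, with 95% exact binomial intervals. In beta nuclei the share of Kmt2a is 16.1% and 16.5% in the FSK columns and 21.4% to 26.1% elsewhere, and that of Ash1l is 17.9% and 18.3% in the FSK columns.

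The ratios moved with gene span, both among the 10 genes and among all genes. In beta nuclei genes shorter than 50 kb (6706 genes) had a median log2 ratio of 0.46 for Ex-4 in WT and longer genes (3980) one of -0.26. For the untreated genotypes the medians were 0.35 and -0.44, and for FSK in the mutant -0.48 and 0.36. Kmt2b, Setd1a, Setd1b and Kmt2d are all shorter than 50 kb and Kmt2a is longer. Against the trend of all genes at their own span, the 10 genes still lay to 1 side: with the trend removed the median log2 ratio was 0.70 for Ex-4 in WT, 0.81 for the untreated genotypes and -0.96 for FSK in the mutant. Among the long genes Kmt2c (0.70, 0.96 and -1.35) and Setd2 (0.72, 0.74 and -0.80) then stood near the short ones. Ash1l (0.38, 0.48 and -0.68) and Ezh2 (0.55, 0.25 and -0.38) remained among the smallest, and Kmt2b came down from 1.09 to 0.68 for Ex-4 in WT. Past 1.5-fold were then 7, 8 and 8 of the 10 genes in these 3 comparisons. Setd1b, past it before, was not for Ex-4 in WT (0.44) or FSK in the mutant (-0.57). The shares of all genes with the trend removed are not reported here for these comparisons, so the counts are not set against them. Over all comparisons, cell types and directions, 4 of 30 such shares moved by over 1.5 times on removal of the trend. For FSK in WT, Kmt2a remained the only gene past the threshold, at -0.70. In alpha nuclei, removing the trend for Ex-4 in WT put Kmt2b, Setd1a and Setd1b under the threshold (0.48, 0.39 and 0.44). Kmt2c rose past it, to 0.69. In delta nuclei Setd1a and Setd1b fell under it (0.35 and 0.25), and Kmt2c, Nsd1 and Ash1l rose past it (0.78, 0.70 and 0.61). The part of gene span in these ratios was not tested beyond these values.

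**Figure D5:**
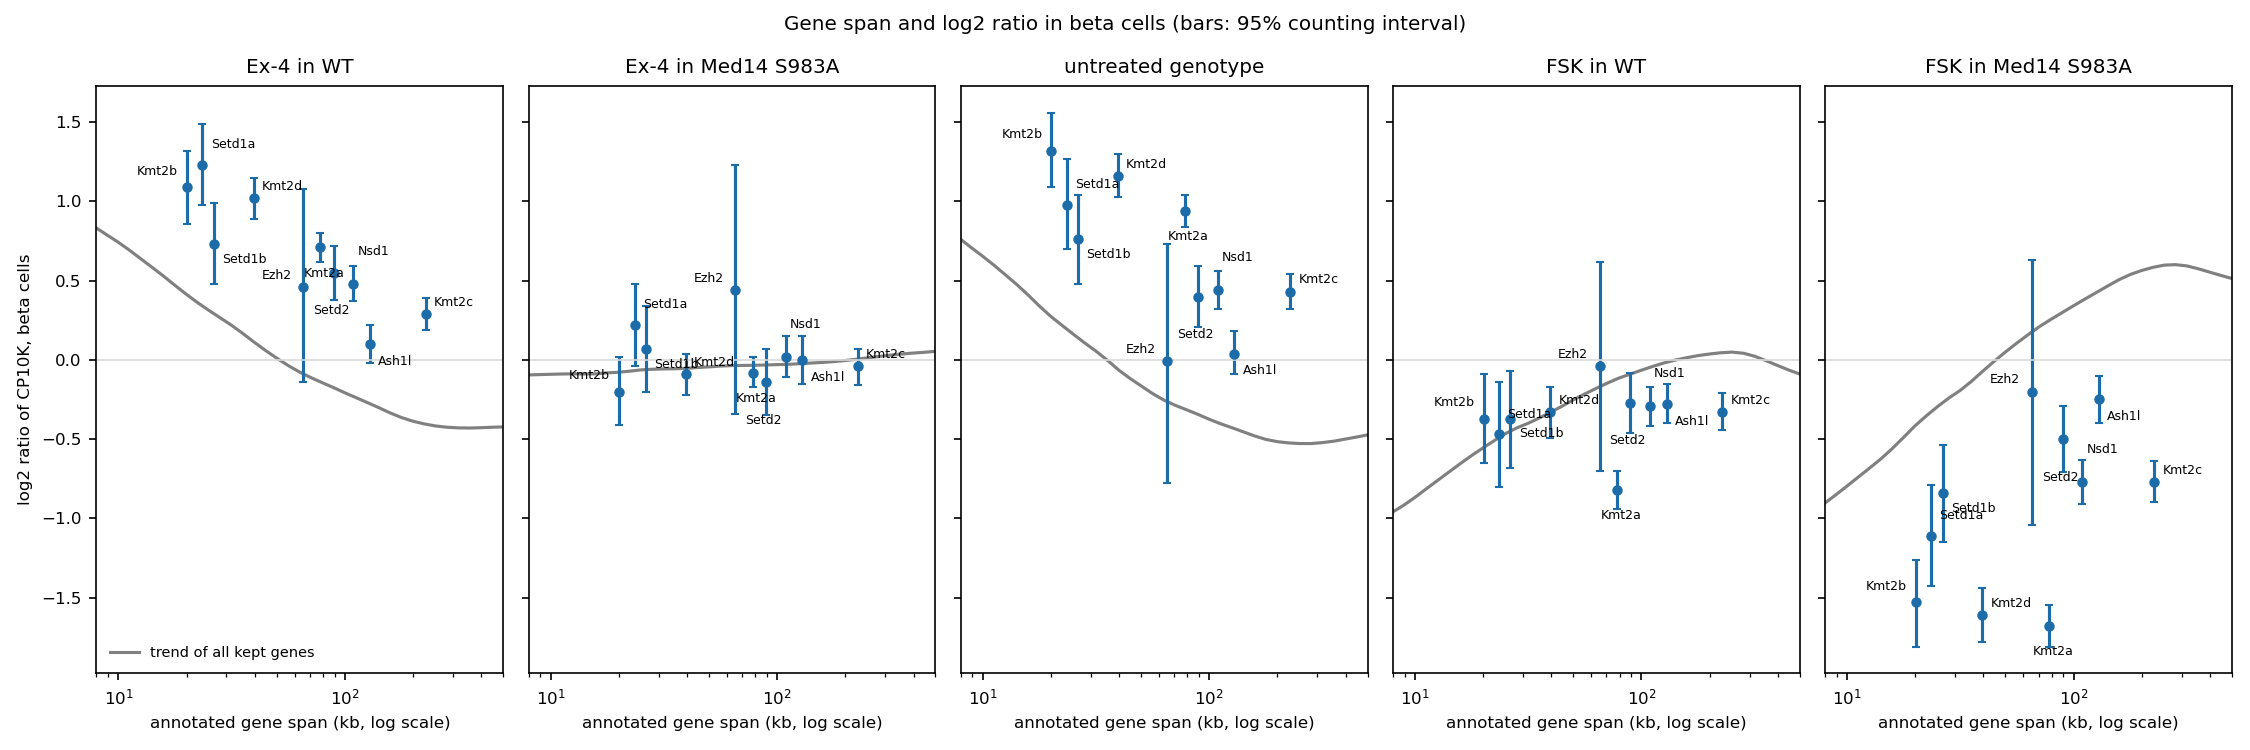
log2 ratio of each gene in beta nuclei against its annotated span (kb, log axis) in the 5 comparisons, with 95% counting intervals, and the trend of all genes kept (grey line). For Ex-4 in WT and the untreated genotypes the 10 genes lie above the line, and for FSK in Med14 S983A below it.

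Levels were also compared between cell types. In the WT FSK columns 7 of the 9 genes kept in alpha nuclei were past 1.5-fold higher in alpha than in beta nuclei, where 33.2% of all genes were, and in the S983A FSK columns 6 of 9 were, where 35.4% were. Kmt2d was 2.26-fold (WT) and 2.38-fold (mutant) higher in alpha nuclei under FSK, but 1.07-fold and 1.00-fold in the CON columns. Elsewhere few passed: none of 9 in WT CON (22.7% of all genes), none in WT Ex-4 (15.4%), 1 in S983A CON (15.1%; Setd1a, 1.86-fold) and none in S983A Ex-4 (13.5%). Summed over the 10 genes, beta nuclei held 23.6 CP10K in WT CON, 17.8 in WT FSK, 35.1 in WT Ex-4, 37.1 in S983A CON, 18.4 in S983A FSK and 36 in S983A Ex-4. Alpha nuclei held 28.4, 32.1, 42.0, 42.6, 31.8 and 42.2 CP10K in the same order, so the alpha and beta columns lay furthest apart after FSK. Delta nuclei, with 23.5, 19.8, 34.9, 40.2, 23.2 and 38.9 CP10K, were nearer to beta than to alpha nuclei in the FSK columns. In S983A FSK the summed delta level still exceeded that of beta nuclei. Delta over beta ratios of single genes ran there from 1.08-fold (Ezh2, 0.424 to 2.45) to 1.80-fold (Setd1a, 1.31 to 2.45). How all genes stood in delta over beta nuclei is not reported here.

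Genes that work with these enzymes, or against them, were taken from lists of complex partners, other H3 methyltransferases and demethylases. Their counts read against the shares of all genes past the threshold in beta nuclei, which with Ex-4 were 29.1% higher and 12.2% lower in WT and 5.59% and 7.65% in the mutant, then 26.9% and 22.0% for the untreated genotypes, 7.15% and 36.3% for FSK in WT and 21.7% and 33.7% for FSK in the mutant. Of the 13 partners of the H3K4 enzymes, all kept in beta nuclei, 5 were past 1.5-fold higher and none lower after Ex-4 in WT (median log2 ratio 0.56), and 4 and none in the untreated mutant (0.35). Menin (Men1), scarce at 0.0398 CP10K in WT CON, was 4.29-fold higher (2.26 to 8.85) after Ex-4 and 3.78-fold (1.87 to 8.14) in the untreated mutant. Cxxc1, the CpG-binding subunit of the Setd1 complexes, was 2.55-fold (1.86 to 3.56) and 2.62-fold (1.85 to 3.72) higher. Ratios of the genes on all these lists are given with the trend on gene span left in. Dpy30, a core subunit, was at 0.747-fold (0.375 to 1.46) and Paxip1, a partner of Kmt2c and Kmt2d, at 0.848-fold (0.739 to 0.973) after Ex-4. After FSK 4 of the 13 were lower in WT (median -0.45) and 5 in the mutant (-0.38), none higher in either. The numbers in the untreated mutant and after FSK are near the shares of all genes. Pagr1a, a further partner of Kmt2c and Kmt2d, had the lowest ratio in both, 0.296-fold (0.107 to 0.713) in WT and 0.0738-fold (0.0145 to 0.235) in the mutant, the latter from 0.177 to 0.0130 CP10K.

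The PRC2 partners past the threshold were no more frequent than genes in general. Of 9 in the table, 2 were higher and none lower after Ex-4 in WT beta nuclei (median 0.19, equal to that of all genes), and 2 and none in the untreated mutant (0.23). The 2 were the same in both comparisons: Phf1, which recruits PRC2 to chromatin, at 2.30-fold (1.78 to 2.99) and 3.0-fold (2.30 to 3.94), and Ezh1, the paralog of Ezh2 found in cells that do not divide, at 1.60-fold (1.4 to 1.82) and 1.57-fold (1.35 to 1.82). Ezh1 was at 1.21 CP10K in WT CON, where Ezh2 was at 0.136. Suz12, a core subunit, gave 1.03-fold (0.841 to 1.27) and 0.970-fold (0.765 to 1.23). After FSK 1 was lower in WT (-0.33) and 3 in the mutant (-0.54), and Phf1 was lowest in both (0.347-fold and 0.150-fold).

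Of the 12 other H3 methyltransferases, 10 were kept in beta nuclei, and those higher after Ex-4 in WT or in the untreated mutant were no larger a share than among all genes. After Ex-4 in WT 2 were higher and 1 lower (median 0.35), and the same numbers held in the untreated mutant (0.09). Ehmt2 (G9a), an H3K9 enzyme, was 2.16-fold (1.79 to 2.62) and 2.85-fold (2.35 to 3.47) higher, and Dot1l, the H3K79 enzyme, 2.05-fold (1.78 to 2.37) and 1.78-fold (1.51 to 2.09). This pair, too, had been singled out by the study from these nuclei. Smyd3, reported as an H3K4 and H4 enzyme, went the other way, from 10.9 CP10K in WT CON to 4.93 after Ex-4 (0.453-fold, 0.426 to 0.482) and 3.68 in the untreated mutant (0.338-fold, 0.311 to 0.367). After FSK in the mutant 3 were lower and 1, Smyd3, higher (2.16-fold, 1.98 to 2.36), at a median of -0.23, and in WT none was past the threshold (-0.24).

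The 11 demethylases that remove methyl groups from H3K4, H3K36 or H3K27 showed ratios on both sides of 1 in beta nuclei, and except for FSK in the mutant their numbers past the threshold were near or under the shares of all genes. After Ex-4 in WT 2 were higher and none lower (median 0.17), Kdm4a by 1.96-fold (1.66 to 2.31) and Kdm6b, an H3K27 demethylase, by 1.70-fold (1.48 to 1.97). In the untreated mutant 3 were higher and 1, Kdm4c, lower (0.624-fold, 0.533 to 0.727), at a median of 0.10. FSK left 2 lower in WT (-0.40), and 5 lower and 1 higher in the mutant (-0.57). After Ex-4 in the mutant, 1 H3K4 partner was higher and 1 lower (Men1 and Wdr82), and none of the other 3 lists had a gene past the threshold.

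In alpha nuclei the same lists gave fewer counts for the H3K4 partners in the untreated mutant (2 higher and none lower of 10 kept) than for Ex-4 in WT (5 and none). In delta nuclei the corresponding numbers were 3 and 4 higher of 9 kept, with none lower. Among all genes 24.5% (Ex-4 in WT) and 23.7% (untreated mutant) were higher in alpha nuclei, and 27.4% and 24.8% in delta nuclei. Of the 10 demethylases kept in alpha nuclei, 4 stood higher and 1 lower in WT given Ex-4, where 22.2% of all genes were lower, and 2 were higher and none lower in the untreated mutant. Of the 10 kept in delta nuclei, 4 and 5 were higher in these comparisons and none lower.

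Each of the 10 genes was finally compared with 6315 genes by Pearson correlation of log2 levels over the 18 columns, as a description. The columns share libraries, and column make-up enters every value. Among the nearest genes, Kmt2a was like Zdhhc1 (0.99), Atrx (0.99) and Sfpq (0.98), Kmt2b like Nop14 (0.98) and Cdk11b (0.97), and Kmt2d like Zbed6 (0.98), Tpr (0.98) and Acin1 (0.97). Kmt2c was close to Luc7l3 (0.96), Rbm25 and Sltm (0.95 each), Setd1a to Prrc2a (0.96) and Myo9b (0.95), and Setd1b to Fnbp4, Smc1a and Prrc2a (0.97 each). The H3K36 enzymes were close to Hnrnpdl, Ccdc88a (0.97 each) and Pcnt (0.96; Nsd1), to Smc4, Macroh2a1 (0.93 each) and Hnrnpd (0.92; Setd2), and to Zfp664 (0.94), Ltbp3 and Traf7 (0.93 each; Ash1l). Ezh2 had no close neighbour (Utp14a 0.68, Tmem184b 0.67 and Fam98a 0.66). Among the 9 genes without Ezh2 the correlation ran from 0.64 (Kmt2c with Setd2) to 0.95 (Kmt2a with Kmt2d), while Ezh2 reached at most 0.13 with any of them.

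Med14, the gene that carries the mutation, was at 0.478 CP10K in WT CON and 0.384 in S983A CON beta nuclei, and at 0.753 and 0.716 after FSK. As a point mutation need not alter mRNA level, the genotype labels are not tested by these values.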

How the data were processed

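The authors processed snRNA-seq reads with split-pipe against mm39, filtered nuclei on counts and mitochondrial reads, integrated the rest in Seurat and assigned cell types. They deposited natural log values, ln(1 + 10000 × count / column total), pooled for 6 conditions and 9 cell types; the annotation release, the strand setting and whether the pooled counts were raw are not given in the sources used here. Undoing the log gave columns summing to 10000, from which whole counts were recovered (100% of values within 0.001 of a whole number, largest distance 6.39e-05).

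The 10 genes, companion lists, threshold and naming rule (all 10, the extremes of each list, the 3 nearest genes by correlation, some of which are not reported here, and Med14) were chosen with earlier results of these data known. Genes were kept at a mean count of 10 over the 6 conditions of a cell type. Effects are log2 ratios of CP10K with no pseudocount, a floor of 3 counts standing in for a count of 0, exact Poisson intervals for counts and exact Clopper-Pearson intervals for ratios and shares (95%). With 1 pool per condition no test was made. The recovery and the intervals were tested on simulated data. Spans and positions are from GRCm39 (GENCODE M39), matched by name for 16531 genes, which covered 97.3% of genes kept in beta nuclei. Alternatives were other pseudocounts, centring, rescaling, a lowess trend on span (fraction 0.3), other summaries and filters, and, added after seeing the data, leaving out Ezh2. Python 3.11.15, numpy, pandas, scipy and statsmodels were used.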

Additional observations from a re-analysis of the deposited data

Results flagged for a closer look

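Kmt2d after FSK was on opposite sides of 1 in different cell types and genotypes, with counting intervals that excluded 1 on each side. In WT alpha nuclei its log2 ratio was 0.74, in WT beta nuclei -0.33 and in WT delta nuclei -0.55, and in Med14 S983A alpha nuclei it was -0.36. The WT alpha value rests on 107 counts in CON and 115 in FSK. The median of all genes was -0.13 in WT alpha, -0.34 in WT beta, -0.07 in WT delta and 0.11 in Med14 S983A alpha nuclei. The WT beta value of Kmt2d thus lay where genes in general lay. These differences were not tested, since each value is 1 pool.

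The 10 genes were also counted in columns that enter no comparison above. Summed over the 10 genes and the 6 conditions, levels were 35.1 CP10K in PP nuclei, 28.3 in nuclei annotated as neurons, 25.6 in endothelial, 25.3 in ductal, 23.4 in macrophage and 21.7 in muscle nuclei, all far above what a count of 0 would allow (0.583 CP10K in the shallowest, ductal nuclei). Beta, alpha and delta nuclei gave 27.2, 37.5 and 30.6 CP10K in the same way. Each condition enters these sums by its column total, and the mix differed between cell types. Neuron columns, for example, held from 4044 counts in WT FSK to 58294 in S983A Ex-4. The order of cell types was not tested apart from this mix. Ezh2 had 48 counts in endothelial nuclei, or 0.690 CP10K (0.509 to 0.915), against 0.148 (0.130 to 0.169) in beta nuclei.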

How the results depend on the processing

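The median log2 ratio of the 10 genes was recomputed for 15 comparisons (5 contrasts in 3 cell types) under 8 alternatives. On the log2(CP10K + 1) scale, where ratios of low levels shrink by construction, the beta medians were 0.38 for Ex-4 in WT, 0.36 for the untreated genotypes and -0.56 for FSK in Med14 S983A. For FSK in WT beta nuclei the median was 0.01 with the median of all genes set to 0 and -0.09 with the span trend removed. In the remaining 115 of 120 recalculations the value stayed within the counting interval of the original. No called ratio of a single gene changed sign, though 93 of 750 moved beyond their intervals, 45 of them on removal of the span trend. The percent of all genes past the threshold moved by over 1.5 times in all 30 cases with a 2-fold threshold, and in 10 of 30 with a mean count of 50. No paired analysis was possible because each condition is a single pool in every cell type, and for the same reason no replicate could be left out. Depth limits Ezh2 most, and then Kmt2b, Setd1a and Setd1b in the CON and FSK columns of WT delta nuclei (14 to 27 counts a column) and WT alpha nuclei (29 to 44).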
